A study of Mus musculus with 6 samples.

Results

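The Toll-like receptor genes Tlr1, Tlr2, Tlr3, Tlr4, Tlr6, Tlr7, Tlr8, Tlr9 and Tlr13 and the adaptor gene Myd88 were followed in cultured mouse macrophages that had met apoptotic cells. These 10 genes were chosen by name from the 38124 genes of the deposited table. Their values entered no selection rule, but earlier results of these data were known when they were picked. All 10 were at 1 RPKM or more in all 6 libraries and were tested. The macrophages were grown from the bone marrow of wild type C57BL mice, and 2 groups of 3 libraries were compared. In the first group the macrophages were kept for 24 hr with thymocytes killed with dexamethasone, at a ratio given as 1:40, and the thymocytes were removed ahead of lysis. The second group was left untreated. Every library was described as a biological replicate. No group received dexamethasone or living thymocytes alone, so effects of the drug carried over, of thymocyte contact and of uptake cannot be told apart.

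Toll-like receptors are membrane proteins that recognise molecules of microbes and of damaged cells. Those at the cell surface bind lipids and proteins of the microbial envelope, whereas those in endosomes bind nucleic acids, including nucleic acids that enter a phagocyte with engulfed material. Apart from Tlr3, the receptors studied here signal through Myd88, which recruits the IRAK kinases and leads to NF-kB activation. Values are RPKM, reads scaled by gene length and sequencing depth. Levels can be compared between genes only as far as the gene lengths behind the values hold. A gene was called changed at an adjusted p under 0.05 in limma on log2(RPKM + 1), fitted over all 10173 tested genes, and log2 changes are on that scale, which understates changes of low genes.

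The depth of the libraries, recovered from the RPKM values and not reported, was estimated at 19315132 to 25933208 reads. Within a group they were close, with Pearson r across genes of 0.994 to 0.997 in treated and 0.997 to 0.998 in untreated libraries, against 0.935 to 0.940 between groups. Most tested genes differed between the groups, since 64.8% were called, 18.8% higher and 46% lower with apoptotic thymocytes. With no filter on low values, 39% of 18737 genes were called. The median log2 change over tested genes was -0.13. With median-of-ratios scaling, which moved that median by 0.15 to 0.02, 31.8% of genes were called higher and 27.9% lower. All 8 macrophage markers were detected in both groups and summed to 20140 to 22460 RPKM in treated and 15480 to 16200 RPKM in untreated libraries, most of it Lyz2. Of these, Mertk and Lyz2 rose, Adgre1, Csf1r, Cd68, Fcgr1 and Itgam fell and Mrc1 did not pass. Under median-of-ratios scaling Adgre1 and Cd68 did not pass (limma adjusted p = 0.513 and 0.834) and Mrc1 was higher (0.00186). Of 14 thymocyte markers, Cd3e, Cd8b1, Rag2, Ptcra and Themis were at 0 in all 6 libraries. Cd3d and Cd3g were above 0 in treated libraries alone, at most 0.0642 and 0.0397 RPKM. Arpp21 was above 0 in untreated libraries alone, at most 0.00249 RPKM. The list summed to 2.11 to 2.53 RPKM in treated and 4.32 to 4.65 RPKM in untreated libraries, most of it Cd4. The part of any thymocyte RNA in the changes below was not tested. Of 6 neutrophil markers, Ly6g was at 0 in all libraries and the list summed to 3.69 to 4.20 RPKM in treated and 0.203 to 0.386 RPKM in untreated libraries. Ngp made up most of the treated sum, with means of 2.81 RPKM in treated and 0.181 RPKM in untreated libraries. Elane, Camp and Ltf were also higher in treated libraries, while Mpo was lower in mean (0.00855 against 0.0246 RPKM). The part of any cells behind these neutrophil markers in the changes below was not tested. The lists for B cells and for plasmacytoid and conventional dendritic cells, other cell types that express Toll-like receptors, summed to at most 0.195, 0.0599 and 0.0667 RPKM in treated and to at most 0.596, 0.157 and 0.150 RPKM in untreated libraries.

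Neither the surface nor the endosomal receptors moved as a class. Of the 10 members, 2 rose (Tlr6 and Tlr7), 5 fell (Tlr1, Tlr2, Tlr3, Tlr4 and Tlr9) and 3 did not pass (Tlr8, Tlr13 and Myd88). This is 7 of 10 called, close to the background of 64.8%, so the number of calls does not set the members apart from other genes. What differed between members was direction and size. The log2 changes ran from -1.56 for Tlr2 to 0.99 for Tlr7, with a median of -0.14 against -0.13 over all tested genes. Of the 4 surface receptors 1 rose and 3 fell (median log2 change -0.61), and of the 5 endosomal receptors 1 rose, 2 fell and 2 did not pass (median -0.06). Median-of-ratios scaling left 2 members higher and 4 lower, because the small fall of Tlr4 was lost. In these bulk libraries, fewer cells that express a gene and less of its RNA per cell cannot be told apart.

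**Figure D1:**
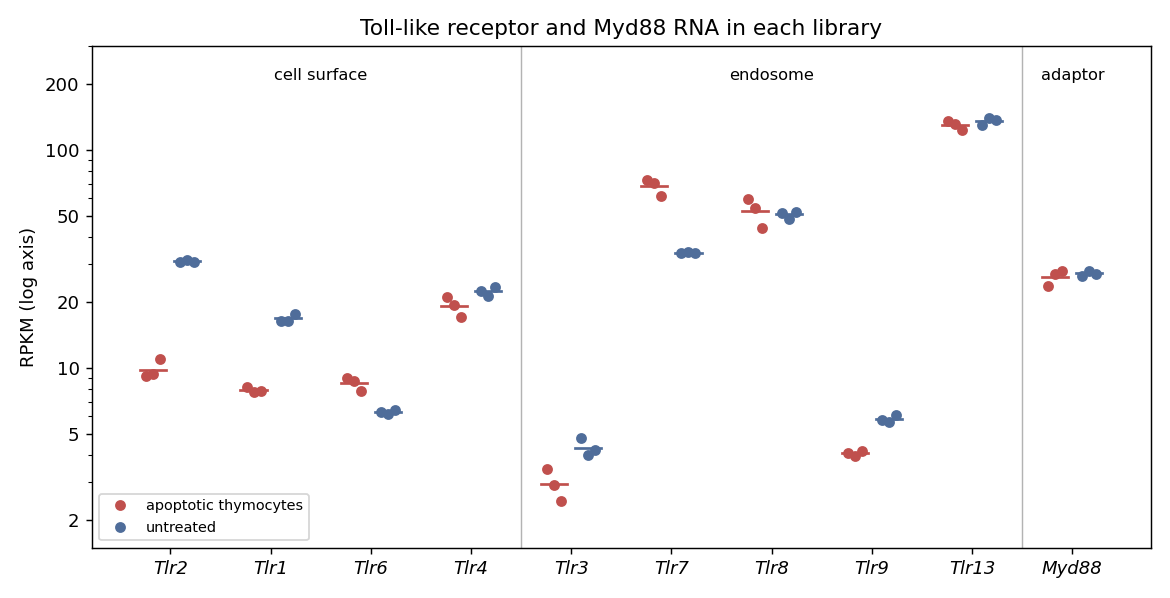
RPKM on a log axis of each member in the 3 libraries with apoptotic thymocytes (red, left) and the 3 untreated libraries (blue, right), with points for libraries and bars for group means. The groups stand far apart for Tlr2, Tlr1 and Tlr7, and overlap for Tlr8, Tlr13 and Myd88.

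The surface receptor Tlr2, which recognises bacterial lipoproteins as a heterodimer with Tlr1 or Tlr6, showed the largest fall of the members. Tlr2 (ENSMUSG00000027995, chromosome 3, 83836273 to 83841767, minus strand, mm10) stood at 9.15, 9.43 and 10.9 RPKM in libraries with apoptotic thymocytes, against 30.6, 31.3 and 30.7 RPKM in untreated libraries. Every treated library lay below every untreated one. Tlr2 was 3.14-fold lower in means, 9.84 ± 0.969 against 30.9 ± 0.399 RPKM (SD, n = 3 each), with a log2 change of -1.56 (SE 0.06, limma adjusted p = 4.93e-08), or -1.43 relative to the median gene.

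Tlr1, the partner that lets Tlr2 bind triacylated lipopeptides, fell as well. Tlr1 (ENSMUSG00000044827, chromosome 5, 64924811 to 64932761, minus strand) had 8.14, 7.73 and 7.86 RPKM with apoptotic thymocytes, against 16.5, 16.5 and 17.8 RPKM in untreated libraries. The groups did not overlap, which was true of 69.6% of all tested genes. The means were 7.91 ± 0.211 and 16.9 ± 0.723 RPKM, 2.14-fold lower with apoptotic thymocytes (log2 change -1.01, SE 0.05, limma adjusted p = 1.5e-07).

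Tlr6, the partner for diacylated lipopeptides, moved the other way. Tlr6 (ENSMUSG00000051498, chromosome 5, 64953106 to 64960048, minus strand) had 8.98, 8.68 and 7.88 RPKM with apoptotic thymocytes, against 6.29, 6.12 and 6.43 RPKM in untreated libraries. All treated libraries were above all untreated ones. The rise was 1.36-fold in means, 8.51 ± 0.569 against 6.28 ± 0.153 RPKM (log2 change 0.38, SE 0.06, limma adjusted p = 0.000306), and 0.52 relative to the median gene. Treated macrophages therefore held about as much Tlr1 as Tlr6 RNA, and the ranges of the pair overlap, while untreated ones held more Tlr1. The ratio of Tlr1 to Tlr6 was 0.907, 0.890 and 0.998 with apoptotic thymocytes, against 2.63, 2.70 and 2.76 in untreated libraries. An exact permutation test over the 6 libraries gave p = 0.1 for this ratio (two-sided), the smallest p that 3 against 3 libraries allow, and 0.1 after adjustment over the 3 ratios tested, which were chosen after their values were seen.

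Tlr1 and Tlr6 are neighbouring paralogs on the same strand, 20.3 kb apart with 0 annotated genes between them, and part of their coding sequence is identical. Of all windows of 75 bases, the number of cycles of the sequencing kit, 340 were shared by the transcripts of both genes in GENCODE M21. Windows shared with any other gene made up 10.6% of the 3307 windows of Tlr1 and 9.25% of the 3677 windows of Tlr6. A read that lies within such a window cannot be assigned to one of the genes, and how such reads were counted was not given in the sources used here. The longest identical stretch is 229 bases, coding bases 1468 to 1696 of 2385 in Tlr1 (chr5:64925537-64925765, mm10, minus strand) and 1507 to 1735 of 2418 in Tlr6 (chr5:64953828-64954056, minus strand). It is shown, 5′ to 3′ and with no capitals, because it limits how well the opposite changes of the pair can be separated.
Tlr1 and Tlr6: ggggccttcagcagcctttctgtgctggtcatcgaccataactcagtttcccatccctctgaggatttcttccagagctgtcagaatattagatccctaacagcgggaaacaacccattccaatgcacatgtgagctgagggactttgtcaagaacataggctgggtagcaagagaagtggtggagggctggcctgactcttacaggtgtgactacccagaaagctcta

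Tlr4, which binds bacterial lipopolysaccharide together with the protein encoded by Ly96, showed the smallest change among the called members. Tlr4 (ENSMUSG00000039005, chromosome 4, 66827584 to 66930284, plus strand) had 21.2, 19.4 and 17.1 RPKM with apoptotic thymocytes, against 22.6, 21.4 and 23.4 RPKM in untreated libraries. The highest treated library lay just under the lowest untreated one. Tlr4 fell 1.17-fold (log2 change -0.22, SE 0.07, limma adjusted p = 0.0259), but only -0.09 relative to the median gene. Tlr4 no longer passed once libraries were scaled by median of ratios (log2 change -0.06, limma adjusted p = 0.501) or by upper quartile (0.238). It also did not pass when low genes were kept in the fit (0.0694), or without treated replicate 2 (0.0572), untreated replicate 1 (0.0719) or untreated replicate 3 (0.0928).

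Upstream sequence is shown for Tlr2 and Tlr1, which fell together, and for Tlr6, which rose. The 250 bases before each RefSeq transcript start are given on GRCm38.p6, 5′ to 3′ on the minus strand, and capitals mark matches to a searched motif. The motifs, searched on both strands, were GAGGAAGT (ETS and PU.1), GAAA and GAAA with any NN between (interferon-stimulated response element), TGANTCA (AP-1), CACGTG (E-box) and GGGA and TTTCC with any N between (NF-kB). Of the 10 members, 8 had an entry, with 10 starts. Tlr4 and Tlr7 had none.
Tlr2 (chr3:83841609-83841858): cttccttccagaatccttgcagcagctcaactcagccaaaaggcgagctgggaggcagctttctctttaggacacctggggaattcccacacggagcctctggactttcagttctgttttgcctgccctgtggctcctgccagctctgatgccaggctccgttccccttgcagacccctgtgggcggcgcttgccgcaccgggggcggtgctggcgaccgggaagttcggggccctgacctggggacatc
Tlr1, upstream start (chr5:64933559-64933808): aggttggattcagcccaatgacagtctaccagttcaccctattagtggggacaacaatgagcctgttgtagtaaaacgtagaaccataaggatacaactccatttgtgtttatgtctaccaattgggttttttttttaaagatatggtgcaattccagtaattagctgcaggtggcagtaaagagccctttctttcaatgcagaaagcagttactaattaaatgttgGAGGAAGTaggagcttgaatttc
Tlr1, downstream start (chr5:64932700-64932949): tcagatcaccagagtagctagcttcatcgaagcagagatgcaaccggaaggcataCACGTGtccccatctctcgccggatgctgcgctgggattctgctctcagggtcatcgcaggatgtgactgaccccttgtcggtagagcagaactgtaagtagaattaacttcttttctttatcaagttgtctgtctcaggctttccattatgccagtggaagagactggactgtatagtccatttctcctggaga
Tlr6, upstream start (chr5:64960049-64960298): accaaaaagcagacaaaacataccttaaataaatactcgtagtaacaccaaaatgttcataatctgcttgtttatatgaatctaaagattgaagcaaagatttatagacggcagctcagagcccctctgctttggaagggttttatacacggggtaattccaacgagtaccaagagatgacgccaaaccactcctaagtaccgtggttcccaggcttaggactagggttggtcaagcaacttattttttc
Tlr6, downstream start (chr5:64959167-64959416): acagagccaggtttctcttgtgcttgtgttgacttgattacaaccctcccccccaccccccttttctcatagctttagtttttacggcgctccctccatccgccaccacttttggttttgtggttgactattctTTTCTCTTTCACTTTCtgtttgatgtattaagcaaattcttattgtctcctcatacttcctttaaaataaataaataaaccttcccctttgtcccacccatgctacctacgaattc
The stretch before the upstream Tlr1 start held an ETS match beginning 23 bases before the start, a motif found in 2.44% of all 32851 promoter windows. The stretch before the downstream Tlr1 start held an E-box (6.02% of windows). The stretch before the downstream Tlr6 start held overlapping response element matches, on the reverse strand, 116 and 110 bases before the start (2.98% of windows). The Tlr2 window and the other Tlr6 window held 0 matches to the searched strings, and other forms of these motifs were not searched. A near match to the NF-kB string in the Tlr2 window, gggaattccc, was therefore not marked. Among the members not printed, Myd88 held a response element match 40 bases before its start, Tlr3 an NF-kB match (0.356% of windows) and Tlr9 an AP-1 match (6.75%). These are letter matches and do not show binding.

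Among the endosomal receptors, Tlr7, which senses single-stranded RNA, showed the only rise. Tlr7 (ENSMUSG00000044583, chromosome X, 167304929 to 167330558, minus strand) had 73.1, 70.3 and 61.2 RPKM with apoptotic thymocytes, against 33.6, 34.0 and 33.5 RPKM in untreated libraries. The lowest treated library was well above the highest untreated one. Tlr7 was 2.02-fold higher, 68.2 ± 6.22 against 33.7 ± 0.244 RPKM (log2 change 0.99, SE 0.06, limma adjusted p = 1.11e-06), and 1.12 relative to the median gene.

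Tlr8, the closest relative of Tlr7 and an RNA sensor in human cells, lies beside it on the X chromosome (ENSMUSG00000040522, 167242696 to 167264329, minus strand), 40.6 kb away with 0 annotated genes between them. Tlr8 had 59.7, 54.0 and 43.7 RPKM with apoptotic thymocytes, against 51.6, 48.4 and 52.0 RPKM in untreated libraries. The treated libraries spread above and below the untreated ones. The log2 change was 0.04 (95% interval -0.18 to 0.26, limma adjusted p = 0.742). It depended on treated replicate 3, the lowest library, without which Tlr8 passed as higher (log2 change 0.16, adjusted p = 0.0278). The ratio of Tlr7 to Tlr8 was 1.23, 1.30 and 1.40 with apoptotic thymocytes, against 0.650, 0.702 and 0.645 in untreated libraries (exact permutation p = 0.1, two-sided, again the smallest possible and 0.1 after adjustment). In contrast to Tlr1 and Tlr6, the longest identical stretch of the coding sequences of Tlr7 and Tlr8 was 13 bases, and 0 windows of 75 bases were shared with any other gene.

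Tlr3 and Tlr9 were the least abundant members and both fell. Tlr9, a receptor for unmethylated CpG DNA (ENSMUSG00000045322, chromosome 9, 106222598 to 106226876, plus strand), had 4.07, 3.96 and 4.17 RPKM with apoptotic thymocytes, against 5.79, 5.65 and 6.11 RPKM in untreated libraries. It was 1.44-fold lower, the libraries of each group were close, and the groups stood apart (log2 change -0.43, SE 0.05, limma adjusted p = 7.05e-05). Tlr3, the receptor for double-stranded RNA that signals through Ticam1 (ENSMUSG00000031639, chromosome 8, 45395665 to 45410608, minus strand), had 3.44, 2.91 and 2.46 RPKM with apoptotic thymocytes, against 4.76, 4.01 and 4.19 RPKM in untreated libraries. It was 1.47-fold lower with wider spread in both groups (log2 change -0.44, SE 0.09, limma adjusted p = 0.00291). At the recovered depth, and with a gene length found by search, these values rest on 255 to 392 reads per treated and 404 to 425 per untreated library for Tlr3. In its transcripts, 4.28% of windows of 75 bases also lie in the antisense gene Gm45542, whose reads could be mixed with those of Tlr3 if strand was not used in counting.

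Tlr13, which recognises bacterial ribosomal RNA in mice, was the most abundant Toll-like receptor RNA in both groups and did not pass the test. Tlr13 (ENSMUSG00000033777, chromosome X, 106143204 to 106160493, plus strand) had 136, 132 and 123 RPKM with apoptotic thymocytes, against 130, 140 and 137 RPKM in untreated libraries. The groups overlapped, and the log2 change was -0.06 (95% interval -0.17 to 0.06, limma adjusted p = 0.352), with the sign turning to positive under both other scalings.

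Myd88 did not pass either. Myd88 (ENSMUSG00000032508, chromosome 9, 119335934 to 119341411, minus strand) had 23.9, 26.9 and 27.8 RPKM with apoptotic thymocytes, against 26.5, 28.0 and 26.9 RPKM in untreated libraries. The groups overlapped, and the interval of the difference allowed a log2 change of -0.19 to 0.08 (estimate -0.05, limma adjusted p = 0.462). Its sign also turned under both other scalings and without treated replicate 1. Exons of Acaa1a on the opposite strand cover 11.3% of the exon bases of Myd88, and Acaa1a stood at 19.3, 19.5 and 20.9 RPKM with apoptotic thymocytes, against 20.7, 20.6 and 19.2 RPKM in untreated libraries.

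**Figure D2:**
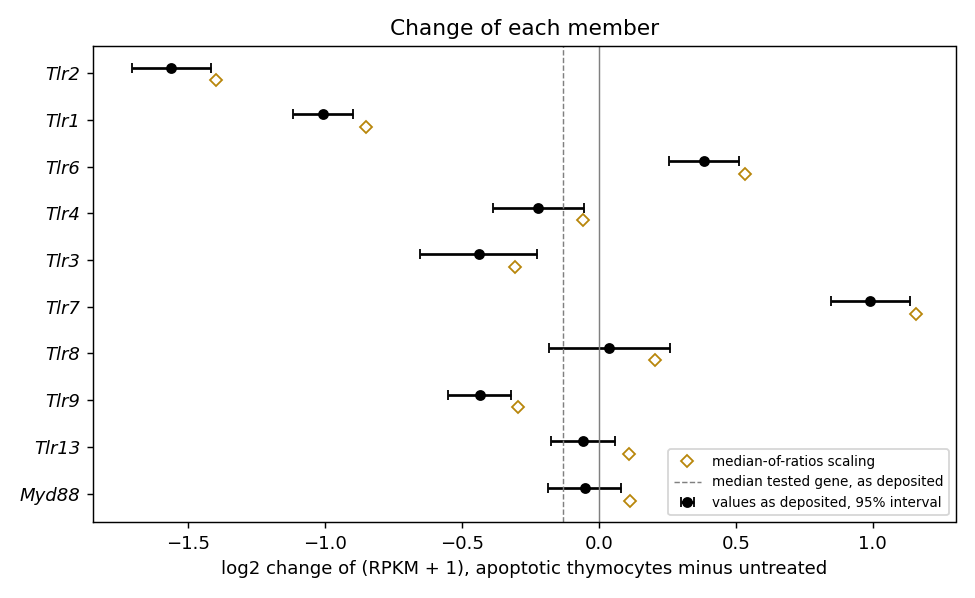
Log2 change of (RPKM + 1) of each member, apoptotic thymocytes minus untreated, with 95% limma intervals (black) and the estimate under median-of-ratios scaling (open diamonds). Tlr2 and Tlr1 lie far to the left and Tlr7 far to the right of the dashed median gene at -0.13, and the intervals of Tlr8, Tlr13 and Myd88 include 0.

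The order of receptor levels differed between the groups. With apoptotic thymocytes it ran Tlr13, Tlr7, Tlr8, Tlr4, Tlr2, Tlr6, Tlr1, Tlr9 and Tlr3 by mean RPKM, and the neighbours whose ranges overlapped were Tlr6 and Tlr1. In untreated macrophages it ran Tlr13, Tlr8, Tlr7, Tlr2, Tlr4, Tlr1, Tlr6, Tlr9 and Tlr3, with no overlap between neighbours. Tlr6 and Tlr9 were barely apart there, with a lowest Tlr6 value of 6.12 and a highest Tlr9 value of 6.11 RPKM. Thus Tlr7 stood above Tlr8 and Tlr4 above Tlr2 in treated cells, and the reverse held in untreated cells. Tlr13, Tlr7 and Tlr8, the 3 most abundant receptors in both groups, all lie on the X chromosome. The ratio of Tlr2 to Tlr4 was 0.432, 0.486 and 0.642 with apoptotic thymocytes, against 1.35, 1.46 and 1.31 in untreated libraries. Among the treated libraries, replicate 3 was the lowest for 6 of the 10 members (Tlr3, Tlr4, Tlr6, Tlr7, Tlr8 and Tlr13) and the highest for Tlr2, Tlr9 and Myd88. Over all tested genes that library was the lowest treated one for 36.0% and the highest for 43.5%.

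Summed RPKM gave the balance of the receptor classes within each library, a measure that library scaling does not change. Surface receptors summed to 47.4, 45.2 and 43.8 RPKM with apoptotic thymocytes, against 76.0, 75.4 and 78.3 RPKM in untreated libraries. Endosomal receptors summed to 276, 263 and 235 RPKM with apoptotic thymocytes, against 225, 232 and 233 RPKM in untreated libraries. The endosomal share was thus 84.98% ± 0.609 with apoptotic thymocytes and 75.0% ± 0.368 in untreated macrophages (SD, n = 3 each), and the groups did not overlap. This is a description of chosen genes and was not tested. Within the sum, Tlr7 made up 22.5% ± 0.420 with apoptotic thymocytes and 10.99% ± 0.195 in untreated libraries, and Tlr2 made up 3.27% ± 0.583 and 10.1% ± 0.183 in the same groups. Without Tlr13 and Tlr4, the genes with the highest mean over all 6 libraries in their classes, the endosomal share was 82.8% ± 1.88 with apoptotic thymocytes and 63.6% ± 0.591 in untreated libraries. These left out genes changed little (log2 changes -0.06 and -0.22), and Tlr7 and Tlr2, whose shares differed most, were kept. The share without Tlr7 and Tlr2 was not computed. Shares of endosomal receptors, treated minus untreated, differed by 11.47 points for Tlr7. They differed by 0.69 for Tlr8, -1.21 for Tlr13, -0.56 for Tlr9 and -0.45 for Tlr3. For surface receptors the differences were -6.80 for Tlr2, -2.90 for Tlr1, -1.01 for Tlr4 and 0.76 for Tlr6. Tlr7 was thus the only endosomal receptor whose share rose by more than 1 point.

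**Figure D3:**
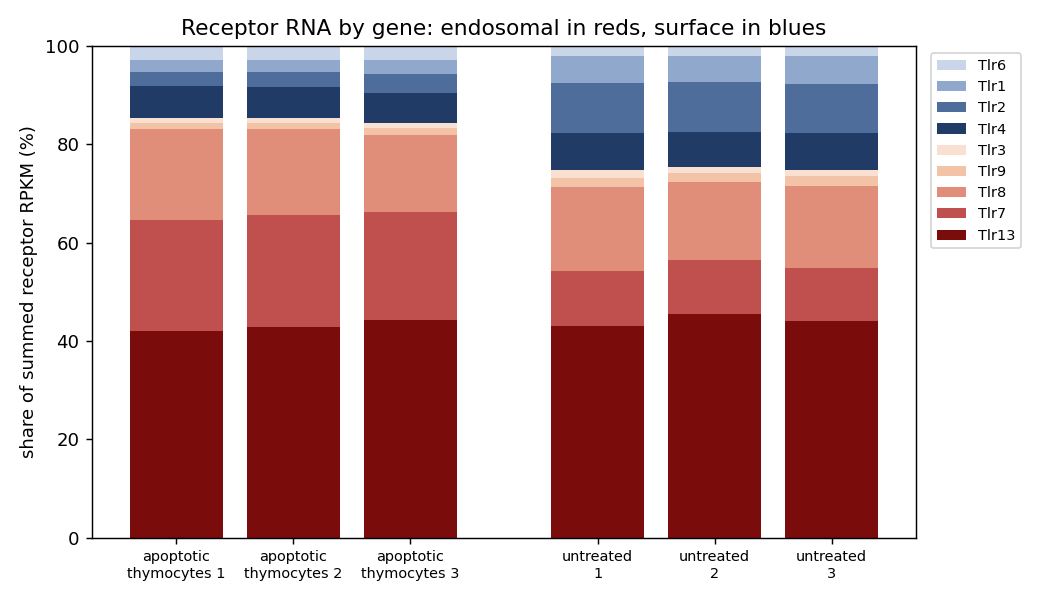
Share of each receptor gene in the summed RPKM of the 9 receptors, for the 3 libraries with apoptotic thymocytes (left) and the 3 untreated libraries (right), with endosomal receptors in reds and surface receptors in blues. The reds reach 84.3 to 85.3% in treated and 74.8 to 75.5% in untreated libraries, and the Tlr7 band is wider and the Tlr2 band narrower in treated libraries.

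The remaining mouse Toll-like receptor genes were too low to be tested. Tlr5, the receptor for flagellin, had 0.410, 0.480 and 0.385 RPKM with apoptotic thymocytes (34, 35 and 29 reads), against 0.129, 0.183 and 0.203 RPKM in untreated libraries (8, 14 and 15 reads, with a gene length found by search). These groups did not overlap, but at under 1 RPKM the gene did not enter the fit. Tlr11 and Tlr12, which recognise profilin of parasites, had at most 1 read in any library.

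Partners that load or carry the receptors moved in both directions. Of 11 co-receptor and trafficking genes, 10 were tested, of which 4 rose, 5 fell and 1 did not pass, against 18.8% of all tested genes higher and 46% lower. Their median log2 change was -0.14, close to the -0.13 over all tested genes. Cd14, which delivers lipopolysaccharide to Tlr4, had 44.6, 52.3 and 54.6 RPKM with apoptotic thymocytes, against 194, 208 and 198 RPKM in untreated libraries. It fell 3.96-fold (log2 change -1.97, SE 0.07, limma adjusted p = 2.57e-08), far more than Tlr4 itself. Ly96, whose product forms the ligand pocket of the Tlr4 complex, rose 1.28-fold, 26.6 ± 1.33 with apoptotic thymocytes and 20.8 ± 0.502 RPKM in untreated libraries (log2 change 0.34, limma adjusted p = 0.000271).

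Cd180, a receptor related to Tlr4 that lacks the signalling domain, had 14.5, 13.4 and 13.2 RPKM with apoptotic thymocytes, against 80.6, 81.0 and 83.5 RPKM in untreated libraries. This was the largest fall of the list, 5.96-fold (log2 change -2.49, SE 0.05, limma adjusted p = 5.55e-10). Its partner Ly86 did not pass, with 61.0 ± 3.17 RPKM with apoptotic thymocytes and 64.8 ± 4.91 RPKM in untreated libraries (limma adjusted p = 0.260), and the sign of that difference turned under both other scalings. The ratio of Cd180 to Ly86 was 0.208 to 0.246 with apoptotic thymocytes, against 1.15 to 1.37 in untreated libraries (exact permutation p = 0.1, two-sided, 0.1 after adjustment). Cd36, a scavenger receptor that assists Tlr2 with Tlr6, rose 1.23-fold (log2 change 0.29, limma adjusted p = 0.00359).

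Of the proteins that fold and move the receptors, both chaperones rose. Hsp90b1, which encodes the endoplasmic reticulum chaperone that folds Toll-like receptors, had 218, 203 and 162 RPKM with apoptotic thymocytes, against 89.8, 87.0 and 86.8 RPKM in untreated libraries (log2 change 1.13, SE 0.10, limma adjusted p = 7.47e-06). Its co-chaperone gene Cnpy3 rose 1.33-fold (log2 change 0.40, limma adjusted p = 0.000271). Unc93b1, which escorts the nucleic acid sensors to endosomes, had 185, 195 and 204 RPKM with apoptotic thymocytes, against 221, 222 and 222 RPKM in untreated libraries. It fell 1.14-fold (log2 change -0.19, limma adjusted p = 0.00664), but Unc93b1 did not pass once libraries were scaled by median of ratios (log2 change -0.02, limma adjusted p = 0.757) or by upper quartile (0.167). The endolysosomal transporter genes Slc15a3 and Slc15a4 fell 1.65-fold and 1.37-fold (log2 changes -0.71 and -0.43). Of the exon bases of Slc15a3, 28.1% are covered by Tmem132a on the opposite strand. Tmem132a was low, at 2.255, 2.125 and 2.484 RPKM with apoptotic thymocytes, against 3.639, 4.276 and 3.963 RPKM in untreated libraries. Slc15a3 had means of 50.3 and 82.7 RPKM in the same groups. Lbp, at most 0.245 RPKM in any library, was not tested.

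Of 6 adaptor genes, 5 were tested, of which 0 rose, 1 fell and 4 did not pass, against 64.8% of all genes called. The one that fell was Pik3ap1, which links the receptors to phosphoinositide kinase signalling, with 39.2, 43.1 and 43.0 RPKM with apoptotic thymocytes, against 162, 166 and 166 RPKM in untreated libraries (3.94-fold, log2 change -1.96, SE 0.05, limma adjusted p = 2.2e-09). Tirap, the adaptor that brings Myd88 to Tlr2 and Tlr4, had 5.51 ± 0.409 RPKM with apoptotic thymocytes and 5.68 ± 0.0723 RPKM in untreated libraries (limma adjusted p = 0.564). Ticam1, the adaptor of Tlr3, had 9.85 ± 0.790 RPKM with apoptotic thymocytes and 8.72 ± 0.442 RPKM in untreated libraries (log2 change 0.16, limma adjusted p = 0.0536). Ticam2, which brings Ticam1 to Tlr4, had 5.41 ± 0.104 RPKM with apoptotic thymocytes and 4.94 ± 0.154 RPKM in untreated libraries (log2 change 0.11, limma adjusted p = 0.0707). Of its exon bases, 14.5% are shared with Tmed7 on the same strand. Tmed7 stood at 18.44, 19.32 and 17.25 RPKM with apoptotic thymocytes, against 17.2, 18.59 and 18.34 RPKM in untreated libraries. The part of such reads in the Ticam2 values was not tested. Ticam1 and Ticam2 both passed as higher under median-of-ratios scaling (log2 changes 0.31 and 0.25) and under upper-quartile scaling (0.26 and 0.21), and Ticam1 also passed without treated replicate 1 or treated replicate 2 (adjusted p = 0.0421 and 0.0489). Sarm1 was below the filter.

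Of 20 signalling kinase and ligase genes, all were tested, and 3 rose, 10 fell and 7 did not pass. The 13 called are about the 64.8% called over all tested genes, so the count does not set these genes apart, and the median log2 change of -0.12 was also near that of all genes. Under median-of-ratios scaling 7 were higher and 6 lower. Irak2, a kinase of the Myd88 complex, had 5.57, 5.76 and 5.95 RPKM with apoptotic thymocytes, against 15.3, 15.6 and 15.4 RPKM in untreated libraries (2.68-fold lower, log2 change -1.28, limma adjusted p = 2.02e-08). The ubiquitin ligase gene Traf3 fell 2.16-fold (log2 change -0.91) and Ikbke, a kinase of interferon induction, fell 1.61-fold (log2 change -0.61). Ikbkg, the regulatory subunit of the kinase complex that activates NF-kB, had 33.5, 32.9 and 32.5 RPKM with apoptotic thymocytes, against 9.42, 9.61 and 9.36 RPKM in untreated libraries (3.48-fold higher, log2 change 1.70, limma adjusted p = 1.9e-09). The other genes of the list that rose were the kinase genes Irak4 (log2 change 0.25) and Ripk1 (0.18). Ikbkg shares 5.15% of its exon bases with G6pdx on the opposite strand, which stood at 126, 125 and 134 RPKM with apoptotic thymocytes, against 70.3, 70.5 and 72.0 RPKM in untreated libraries, and the part of such reads in its rise was not tested.

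Of 11 genes that restrain Toll-like receptor signalling, 8 were tested, of which 1 rose, 5 fell and 2 did not pass, against 64.8% of all tested genes called and 46% lower. Under median-of-ratios scaling 2 were higher and 4 lower. Tnip3, which encodes a partner of the ubiquitin-editing enzyme A20, showed the largest fall, to 0.402 ± 0.0511 RPKM with apoptotic thymocytes, against 19.4 ± 1.27 RPKM in untreated libraries (log2 change -3.86, limma adjusted p = 2.08e-10). Tnip3 reached the filter through the untreated libraries alone, so its place among the tested genes already required a difference. Tnfaip3, the gene of A20, fell 2.29-fold (log2 change -0.94) and Zc3h12a, an RNase that degrades cytokine mRNA, fell 1.66-fold (log2 change -0.66). The member that rose was Cd200r1, an inhibitory receptor of myeloid cells, with 104, 106 and 91.7 RPKM with apoptotic thymocytes, against 43.5, 45.3 and 46.0 RPKM in untreated libraries (2.24-fold, log2 change 1.15, limma adjusted p = 2.69e-07).

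Among genes that Toll-like receptor ligands induce, falls were more frequent than rises, although no ligand other than the thymocytes was added to either group. The list was chosen with earlier results of these data known, which may favour such an outcome. With all 18 in the fit and no filter on low values, 1 rose, 13 fell and 4 did not pass, against 39% of all 18737 genes called, 11.4% higher and 27.5% lower. Their median log2 change was then -0.80, against -0.02 over all genes in that fit. With the filter, 12 were tested, of which 1 rose, 10 fell and 1 did not pass, against 18.8% of tested genes higher and 46% lower. The filter favoured this outcome, because Il10, Cxcl1, Cxcl2, Nfkbiz and Il1rn reached it through the untreated libraries alone and Cxcl10 through the treated ones alone. The median log2 change of the 12 was -1.65, or -2.44 with a pseudocount of 0.1. Tnf, the gene of the cytokine, had 1.84, 1.45 and 1.61 RPKM with apoptotic thymocytes, against 18.3, 19.4 and 20.1 RPKM in untreated libraries (log2 change -2.95, limma adjusted p = 1.25e-09). Il1rn, the interleukin 1 receptor antagonist, had 0.505, 0.630 and 0.702 RPKM with apoptotic thymocytes, against 7.48, 8.63 and 8.07 RPKM in untreated libraries (log2 change -2.49, limma adjusted p = 5.28e-09). Nfkbiz, a nuclear NF-kB cofactor, fell 9.30-fold (log2 change -2.02) and Marcksl1, a membrane and actin binding protein, fell 7.62-fold (log2 change -2.71). The gene that rose was Nfkbia, the NF-kB inhibitor, with 65.3, 69.1 and 73.3 RPKM with apoptotic thymocytes, against 51.6, 48.9 and 48.2 RPKM in untreated libraries (log2 change 0.47, limma adjusted p = 4.95e-05). The one that did not pass was the chemokine gene Cxcl10 (log2 change 0.31, limma adjusted p = 0.0815). Cxcl10 passed as higher under median-of-ratios scaling (log2 change 0.40, limma adjusted p = 0.0295). The list then had 2 higher and 10 lower. The same counts held under upper-quartile scaling, with a replicate block and without treated replicate 3. Without any 1 untreated library, 8 of these genes were tested and 7 or 8 of them called, because a gene present in 2 libraries no longer reached the filter of 3.

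**Figure D4:**
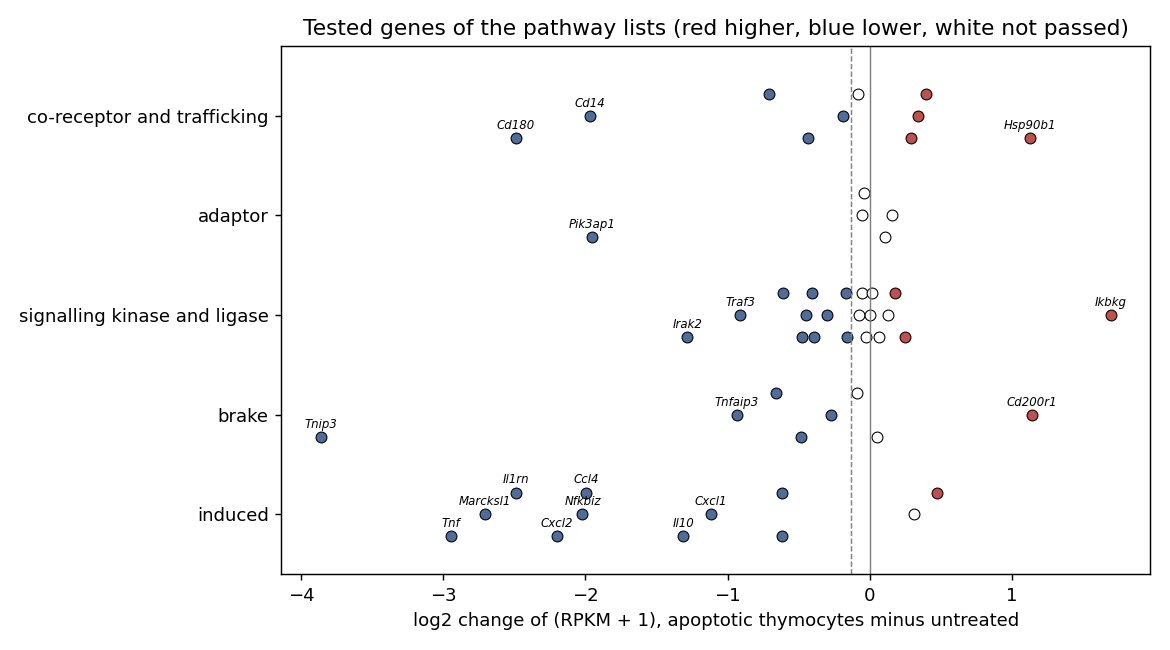
Log2 change of (RPKM + 1), apoptotic thymocytes minus untreated, of the tested genes of the 5 pathway lists, 1 row per list and 1 point per gene (red higher, blue lower, white not passed; vertical offsets separate points). The adaptor points other than Pik3ap1 lie near 0, while most tested induced genes lie below -1. Among the latter, Il10, Cxcl1, Cxcl2, Nfkbiz and Il1rn reached the filter through the untreated libraries alone, which favours a fall.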

How the data were processed

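Strand-specific poly(A) RNA libraries were made with a TruSeq kit and sequenced on a NextSeq, per the labels' protocols. The authors deposited RPKM values, per the file headers, in a table of 38124 genes and 6 library columns, and 0 columns belonged to no sample. The mouse build was GRCm38 (mm10), per the submitters' processing notes. Which aligner and counter were used, whether strand was used and how multiply mapping reads were handled are not given in the sources used here.

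Depth was recovered from the RPKM of genes with 1 read and their GENCODE M21 exon length. With it, 57.8 to 59.1% of values under 200 reads came out whole within 0.01 reads. Of the 13 Toll-like receptor and Myd88 rows, 5 gave whole reads with that length. For the other 8 a length was searched until the values came out whole, so this is no check of their recovered reads, which enter no test. Precision from reads covers counting error only.

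The fit used limma 3.58.1 under R 4.3.3, on log2(RPKM + 1) of each gene that reached 1 RPKM in 3 libraries or more, with group alone in the model and a trended prior. P values are two-sided, adjusted by the Benjamini-Hochberg method over all 10173 tested genes. Folds are ratios of mean RPKM. The fit was also run on simulated reads in which few genes changed, as many up as down. Most genes were called in these data, so that run is no check of the calls made here. Alternatives were a pseudocount of 0.1, no filter, median-of-ratios and upper-quartile scaling, a replicate block and leaving out each library. Ratios and counts were computed with pandas 2.3.3 (Python 3.11.15). Promoter windows are RefSeq's on GRCm38.p6, without the bases after the start.

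The members and lists were chosen with earlier results of these data known. Named are all members, the other Toll-like receptors, every tested adaptor, co-receptor and trafficking gene, and of each other list the 4 tested genes with the smallest p. Overlapping genes, marker genes, Sarm1, Lbp, Irak4, Ripk1, Nfkbia, Il10, Cxcl1, Cxcl2 and Cxcl10 were named after their values were seen.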

Additional observations from a re-analysis of the deposited data

How the results depend on the processing

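Of 36 named genes, 27 kept their direction and their side of the threshold under each alternative in which they were tested. Tnip3, Il1rn and Nfkbiz are among the 27 but were not tested when 1 untreated library was left out, because they then missed the filter. With median-of-ratios scaling the tested genes called were 3235 higher and 2836 lower, against 1915 and 4679 as deposited. The adaptor list then had 3 called genes under median-of-ratios and 3 under upper-quartile scaling, against 1. Log2 changes that turned positive under median-of-ratios and upper-quartile scaling were 0.11 and 0.059 for Myd88, 0.11 and 0.057 for Tlr13, 0.11 and 0.0585 for Tirap, and 0.084 and 0.030 for Ly86. These scalings divide treated libraries by less than untreated ones, which shifts every change upward.

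Leaving out 1 library gave 1 to 2 called adaptors, 7 to 12 called induced genes, 6 to 8 called members, and log2 changes of -0.10 to 0.011 for Myd88, -0.087 to 0.0032 for Tirap and -0.058 to 0.16 for Tlr8. The gap in endosomal share was 9.95 percentage points, 9.77 to 10.3 without 1 library and 19.2 without Tlr13 and Tlr4. The gap without Tlr7 and Tlr2, whose shares differed most, was not computed. Same-numbered libraries did not deviate together (correlations 0.197, -0.031 and -0.162 over 10173 genes), so the numbers were not read as pairs. With a replicate block 6531 genes were called, against 6594, and 7 members in both. The induced list had a median log2 change of -1.65, -0.80 with no filter and -2.44 with a pseudocount of 0.1. Macrophage markers were 2 higher and 5 lower, 1 and 4 with no filter, and 3 and 3 under either other scaling. Tlr5, at 8 to 35 recovered reads per library, stayed below the filter.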
